A study of Homo sapiens with 6 samples.

Results

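SEPHS2 and 9 further human selenoprotein genes were followed in HEK293 cells treated with Quinolinol B23. The 10 genes are SEPHS2, GPX1, GPX4, SELENOK, SELENOS, SELENOT, SELENOF, SELENON, SELENOH and SELENOW, out of 15496 genes with values. They were chosen by name around a low SEPHS2 level seen in B23 libraries in the same comparison that is described here. Their levels and differences are therefore given as a description with no p-value, and any mention of a threshold for them only places them beside the same count over all genes. The genes set beside them are given with limma's adjusted p.

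Selenoproteins carry selenocysteine, an amino acid that uses selenium where cysteine has sulfur and that usually sits at the catalytic site of an oxidoreductase. It is encoded by UGA, normally a stop codon, which is read as selenocysteine only when a hairpin in the 3' untranslated region, the SECIS element, recruits a binding protein, a dedicated elongation factor and a dedicated tRNA. SEPHS2 makes selenophosphate, the selenium donor for that tRNA, and is itself a selenoprotein, so it stands both upstream of the family and within it. Because the ribosome may read UGA as a stop, selenoprotein mRNAs with an exon junction downstream of it can be substrates of nonsense-mediated decay.

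HEK293 is an established human line from embryonic kidney, grown here in RPMI with fetal bovine serum. Polyadenylated RNA was sequenced from cells given B23 (3 libraries) and from cells given the solvent, labelled DMSO-control (3 libraries). B23 is a compound of the quinolinol class, and neither dose nor length of treatment is given in the sources used here. The 3 libraries of a group are called triplicates, with no word on whether they came from separate cultures, so a p-value here reflects the spread among those 3, possibly technical.

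The libraries held 40950318 to 45319519 reads in listed genes for B23 and 45732612 to 47444126 for DMSO. Levels are in CPM as deposited, reads of a gene relative to a total for its library whose scaling is stated in no source used here. CPM of the listed genes added up to 890367 to 900113 in B23 and 745216 to 753745 in DMSO, so folds depend on that scaling. With relative levels, fewer cells with a transcript and less of it per cell cannot be told apart. All 7 HEK293 markers were listed, summing to 1315 to 1395 CPM in B23 and 871 to 914 CPM in DMSO. Of the 7, VIM, KRT8 and KRT18 were higher in B23 (VIM 685 to 719 CPM in B23 and 366 to 397 CPM in DMSO), NEFL, NEFM and PAX2 were lower, and CDH2 did not pass the test. NEFL had 73.7 to 77.3 CPM in B23 and 127 to 139 CPM in DMSO, and PAX2, a kidney lineage factor, only 1.15 to 1.53 CPM in B23 and 5.29 to 6.65 CPM in DMSO. Of 7 markers of blood, liver, endothelium and fibroblasts, COL1A1 had 11.5 to 13.3 CPM in B23 and 9.04 to 9.69 CPM in DMSO, and the other 6 were not analysed here. Mitochondrially encoded genes held 1.44 to 1.71% of listed CPM in B23 and 1.40 to 1.54% in DMSO. The part of these values in the differences below was not tested.

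The selenocysteine codon is what the 10 genes share, and its surroundings are shown for 9 of them because they set the transcripts apart from ordinary coding genes and from each other. Each line gives up to 30 bases of coding sequence before the codon and up to 27 after it, 5' to 3' on the coding strand, with the selenocysteine TGA in capitals. The sequences are those of GENCODE release 29 transcripts, and positions are of the codon on GRCh38, all of them in coding exons.
SEPHS2, chr16:30445548-30445550, minus strand, exon 1 of 1: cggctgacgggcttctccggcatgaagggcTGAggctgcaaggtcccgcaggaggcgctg
GPX1, chr3:49358132-49358134, minus strand, exon 1 of 2: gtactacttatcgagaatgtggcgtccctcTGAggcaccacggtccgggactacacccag
GPX4, chr19:1105403-1105405, plus strand, exon 3 of 7: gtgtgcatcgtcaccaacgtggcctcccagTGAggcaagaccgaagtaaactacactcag
SELENOK, chr3:53885831-53885833, minus strand, exon 4 of 5: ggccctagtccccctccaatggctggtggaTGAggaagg
SELENOS, chr15:101272777-101272779, minus strand, exon 6 of 7: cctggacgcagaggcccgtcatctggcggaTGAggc
SELENOT, chr3:150622392-150622394, plus strand, exon 2 of 6: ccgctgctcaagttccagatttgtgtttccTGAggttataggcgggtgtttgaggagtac
SELENOF, chr1:86880690-86880692, minus strand, exon 3 of 5: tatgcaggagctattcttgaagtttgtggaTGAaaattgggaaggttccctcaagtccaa
SELENOH, chr11:57741816-57741818, plus strand, exon 2 of 3: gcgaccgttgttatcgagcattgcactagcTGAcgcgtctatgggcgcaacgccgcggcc
SELENOW, chr19:47780732-47780734, plus strand, exon 2 of 6: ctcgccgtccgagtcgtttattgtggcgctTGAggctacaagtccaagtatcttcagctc

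In these windows the base after TGA was g in 7 of the 9 genes shown, a in SELENOF and c in SELENOH. The windows of GPX1 and GPX4, both glutathione peroxidases, were identical at 36 of 60 bases, and those of GPX1 and SEPHS2 at 25 of 60. SELENON has 2 annotated selenocysteine codons and is given below by its levels. In SELENOK and SELENOS, which end shortly after the codon, it is codon 92 of 94 and codon 188 of 189, so their windows stop at the end of the coding sequence.

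SEPHS2 stood apart in gene structure. Its mRNA comes from a single exon, so it has no exon junction downstream of the selenocysteine codon, which is codon 60 of 448. In the other 9 genes the codon lay upstream of the last exon. The distance from codon to last junction was 5 bases in SELENOK and 13 in SELENOS, and it ranged from 78 bases in SELENOF to 470 in SELENOT among the remaining genes with 1 annotated codon. GPX1 had 105 bases and GPX4 342 bases to the last junction.

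**Figure D1:**
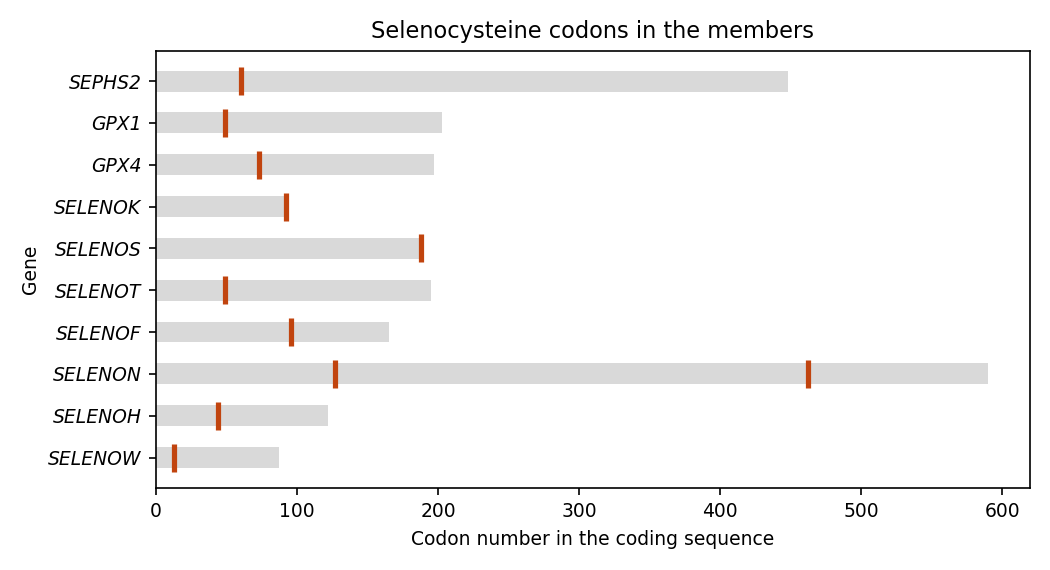
Position of the selenocysteine codon (orange mark) along the coding sequence (grey bar, in codons) of each of the 10 genes, from GENCODE 29. SELENOW carries it at codon 13 of 87, near the start, while SELENOK and SELENOS carry it at the end and SELENON has 2 annotated sites.

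SEPHS2 was the gene with the largest difference among the 10 and was 8.70-fold lower in B23. It had 28.5, 27.8 and 27.4 CPM in the B23 libraries, against 248, 242 and 239 CPM in the DMSO libraries. Every B23 library lay far below every DMSO library, and replicates within a group differed little. The means were 27.9 ± 0.581 CPM in B23 and 243 ± 4.63 CPM in DMSO (SD, n = 3 each), and the difference on the log2(CPM + 0.5) scale was -3.10 (SE 0.034). These values rest on 1280 to 1450 reads in B23 and 14713 to 15649 reads in DMSO. No listed gene with a mean of at least 10% of that of SEPHS2 overlaps its exon at chr16:30443631-30446181, and genes that are not listed were not checked. Over all alternative settings the log2 difference of SEPHS2 stayed between -3.35 and -2.99. It was the 26th lowest log2 difference of 14792 genes tested.

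SEPHS1 is the relative of SEPHS2 that has no selenocysteine and does not supply selenophosphate. It was lower as well, with 36.5 ± 0.929 CPM in B23 and 52.4 ± 0.816 CPM in DMSO, a 1.44-fold difference with a limma adjusted p of 5.77e-12. The ratio of SEPHS2 to SEPHS1 CPM was 0.798, 0.768 and 0.730 in the B23 libraries, against 4.71, 4.56 and 4.63 in the DMSO libraries. Within a library SEPHS2 thus had fewer reads than SEPHS1 in B23 and more in DMSO.

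Among the 10 genes, 6 were higher in B23 past the threshold of an adjusted p under 0.05, 3 were lower and GPX1 did not pass. Over all 14792 genes tested, 39.6% were higher past that threshold, 49.0% were lower and 88.6% were either. All 3 B23 libraries lay above all 3 DMSO libraries for 5 of the 10 genes, against 39.8% of all genes, and below them for 3, against 49.1%. Since the genes were chosen on this comparison, nothing is read from these counts. The median log2 difference was 0.10 for the 10 genes and -0.10 for all genes, and scaling to the total of the listed genes moved the median of all genes to -0.34.

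**Figure D2:**
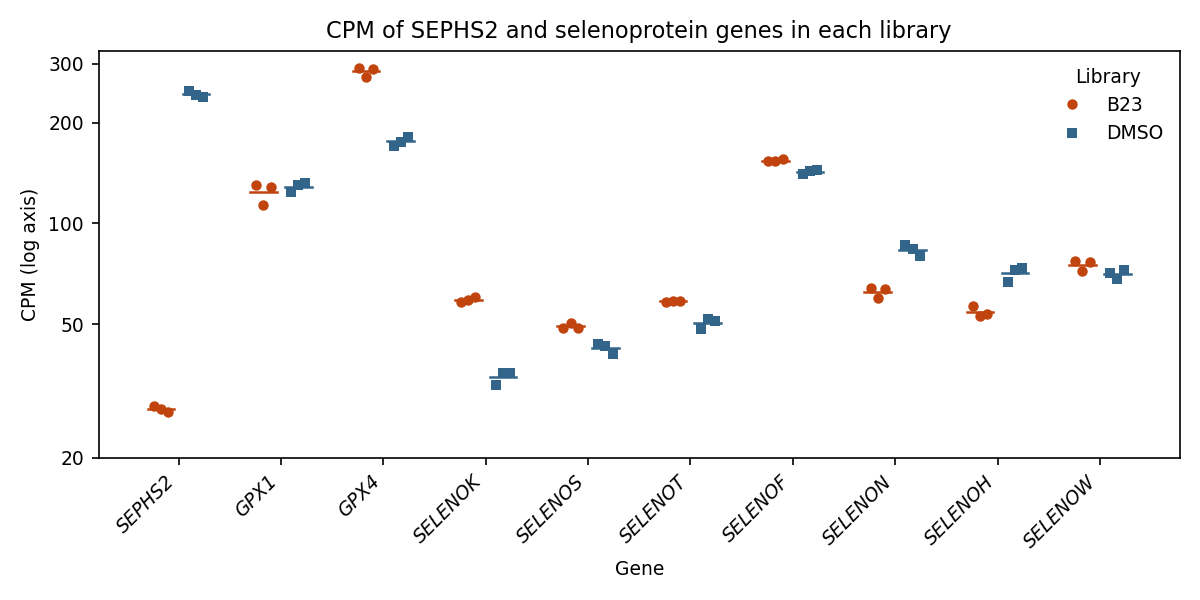
CPM (log axis) of the 10 genes in each of 3 B23 libraries (orange circles) and 3 DMSO libraries (blue squares), with horizontal lines at the group means. SEPHS2 lies at 27.4 to 28.5 CPM in B23 and 239 to 248 CPM in DMSO, GPX4 and SELENOK lie higher in B23, and the groups overlap for GPX1 and SELENOW.

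GPX4 reduces phospholipid hydroperoxides in membranes and is the enzyme that protects cells from ferroptosis. It had 291, 273 and 289 CPM in the B23 libraries, against 171, 175 and 182 CPM in the DMSO libraries. The groups did not overlap, and the mean was 1.62-fold higher in B23, with 285 ± 9.75 CPM in B23 and 176 ± 5.43 CPM in DMSO. The log2 difference was 0.69 (SE 0.035), and it was 0.14 with quantile normalization.

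GPX1, the abundant cytosolic peroxidase that removes hydrogen peroxide, had 130, 114 and 129 CPM in the B23 libraries, against 124, 130 and 132 CPM in the DMSO libraries. The groups overlapped, and the means of 124 ± 9.27 CPM in B23 and 129 ± 4.30 CPM in DMSO differed by less than the SD in B23. The sign of its log2 difference of -0.05 (SE 0.045) turned with TMM or median-of-ratios scaling and was -0.47 with quantile normalization. GPX4 to GPX1, as a ratio of CPM within a library, averaged 2.29 ± 0.097 in B23 and 1.37 ± 0.015 in DMSO. GENCODE 29 types GPX1 as a polymorphic pseudogene, although the transcript shown above is annotated with its selenocysteine codon.

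Of the selenoproteins of the endoplasmic reticulum, SELENOK differed most upward. SELENOK, a membrane protein with a part in protein palmitoylation and in the disposal of misfolded proteins, had 58.3, 58.9 and 60.5 CPM in the B23 libraries, against 33.0, 35.9 and 35.7 CPM in the DMSO libraries. It was 1.70-fold higher in B23, with no overlap and a log2 difference of 0.76 (SE 0.041) that stayed between 0.51 and 0.87 over the alternative settings.

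SELENOS and SELENOT differed less. SELENOS, which recruits the ATPase VCP to the same disposal pathway, had 48.8, 50.4 and 48.7 CPM in B23, against 43.7, 43.0 and 40.8 CPM in DMSO. SELENOT, a thioredoxin-like protein of the reticulum membrane, had 58.3, 58.8 and 58.8 CPM in B23, against 48.3, 51.7 and 51.2 CPM in DMSO. Both were 1.16-fold higher in B23 without overlap of the groups, with log2 differences of 0.21 and 0.22, but scaling to the total of the listed genes turned these to -0.038 and -0.034. SELENOT shares 61 exonic bases with SERP1 on the opposite strand, and no source used here says whether the counting used strand. The ratio of SELENOK to SELENOS averaged 1.202 ± 0.037 in B23 and 0.821 ± 0.060 in DMSO, with no overlap, so these genes did not keep 1 ratio.

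SELENOF, a partner of the glycoprotein-folding sensor UGGT1, had 153, 154 and 155 CPM in B23, against 140, 144 and 144 CPM in DMSO. It was 1.08-fold higher in B23, and this small difference of 0.11 on the log2 scale turned to -0.14 with scaling to the listed total and to -0.35 with quantile normalization. SELENON, a reticulum protein tied to calcium handling and mutated in a congenital muscle disease, was the reticulum gene of the 10 that was lower. It had 64.2, 59.8 and 63.6 CPM in B23, against 86.0, 83.7 and 80.0 CPM in DMSO, a 1.33-fold lower mean without overlap. Its log2 difference was -0.41 (SE 0.038) and stayed between -0.66 and -0.30 over the settings. AL020996.2 overlaps SELENON on the same strand, over 378 exonic bases.

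The remaining pair are small proteins with a thioredoxin-like fold. SELENOH, a nuclear DNA-binding oxidoreductase, had 56.5, 52.8 and 53.6 CPM in B23, against 67.1, 72.6 and 73.5 CPM in DMSO. It was 1.31-fold lower in B23 without overlap, with a log2 difference of -0.38 (SE 0.040), and AP001931.1 and TMX2-CTNND1 overlap it on the same strand. SELENOW, a cytosolic protein abundant in muscle, had 77.0, 72.0 and 76.6 CPM in B23, against 71.1, 68.2 and 72.6 CPM in DMSO.

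The SELENOW groups overlapped and the mean was 1.06-fold higher in B23, with a log2 difference of 0.090 (SE 0.038). SELENOW is one of the 6 genes counted as higher. It did not pass the threshold without B23 replicate 1, B23 replicate 3 or DMSO replicate 2, nor in the fit with no trend and not robust. Its sign turned to -0.16 with scaling to the listed total and to -0.15 with quantile normalization. In rodents GPX1, SELENOW and SELENOH are among the transcripts most lowered by a selenium-poor diet. In these libraries SELENOH was the 1 of those 3 whose B23 values all lay below DMSO. Selenium was not measured, its part in these differences was not tested, and nothing is read from this count.

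**Figure D3:**
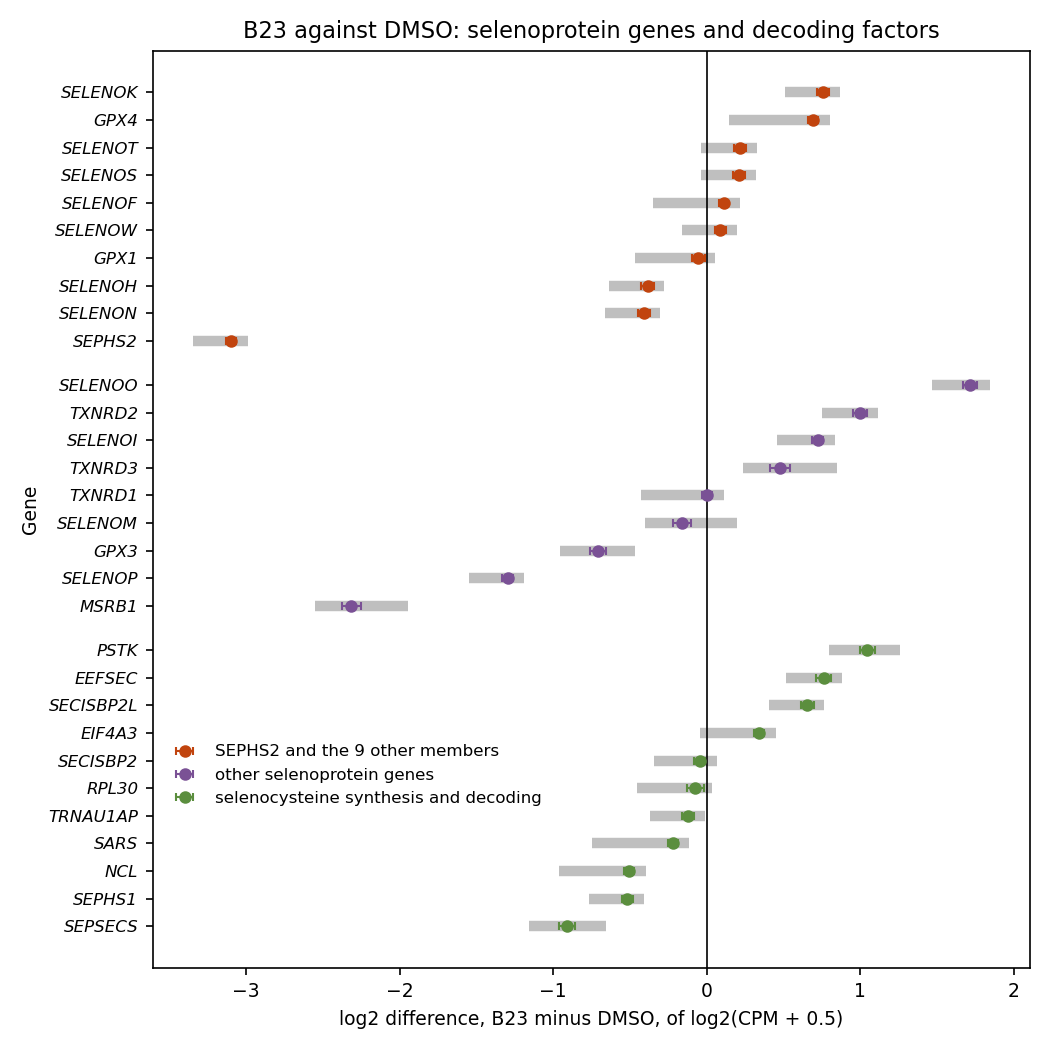
Difference of log2(CPM + 0.5), B23 minus DMSO, for the 10 genes (orange), the other tested selenoprotein genes (purple) and the genes of selenocysteine synthesis and decoding (green). Points carry SE bars from the limma fit and grey bands span all alternative settings; the bands of SEPHS2, MSRB1 and SELENOO stay far from 0, while those of SELENOS, SELENOT, SELENOF, SELENOW and GPX1 cross it.

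Levels of different genes were compared per kilobase of transcript. By the length of the principal transcript, GPX4 led in both groups, with 310 ± 10.6 CPM per kb in B23 and 191 ± 5.90 in DMSO, followed by GPX1 with 108 ± 8.05 in B23 and 112 ± 3.74 in DMSO. SEPHS2 was last of the 10 in B23 with 10.9 ± 0.228 CPM per kb and ranked below only GPX4 and GPX1 in DMSO with 95.2 ± 1.81. With all annotated exons as the length SEPHS2 was again last in B23, and first in DMSO.

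The order of the others on the principal-transcript scale in B23 was SELENOF, SELENOW, SELENOH, SELENOK, SELENOS, SELENOT and SELENON. In DMSO it was SELENOH, SELENOF, SELENOW, SELENOS, SELENOK, SELENON and SELENOT. SELENOF and SELENOW did not differ beyond their spread in either group, nor did SELENOH and SELENOF in DMSO. The principal transcript of SELENOW is SELENOW-212, of 888 bases, while its codon window above is from SELENOW-202, of 550 bases. The shorter length would raise the CPM per kb of SELENOW. Its place relative to GPX1, SEPHS2, SELENOH and SELENOF thus depends on the transcript used. SELENOK stood just above SELENOS in B23, with 36.3 ± 0.689 and 34.3 ± 0.666 CPM per kb, and below it in DMSO, with 21.3 ± 0.976 and 29.5 ± 1.06. This change of order depends on the length used, since with all exons SELENOK stood above SELENOS in both groups.

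Of the CPM per kb summed over the 19 tested selenoprotein genes, SEPHS2 held 1.21% in B23 and 10.9% in DMSO by principal transcript, and 2.19% in B23 and 18.4% in DMSO by all exons. GPX4 held 34.1% in B23 and 21.8% in DMSO by principal transcript, and 28.2% in B23 and 16.8% in DMSO by all exons. Summed CPM of the 10 genes was 950.1 ± 25.1 in B23 and 1043 ± 9.63 in DMSO. Without SEPHS2 the other 9 summed to 922 ± 24.99 CPM in B23 and 800.0 ± 14.2 CPM in DMSO. The sum without SEPHS2 was thus 1.15-fold higher in B23, although SELENON, SELENOH and GPX1 had lower means there. This direction depends on the scaling: as a share of all listed CPM the 9 genes held 0.103 ± 0.0025% in B23 and 0.107 ± 0.0013% in DMSO, a ratio of 0.967.

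**Figure D4:**
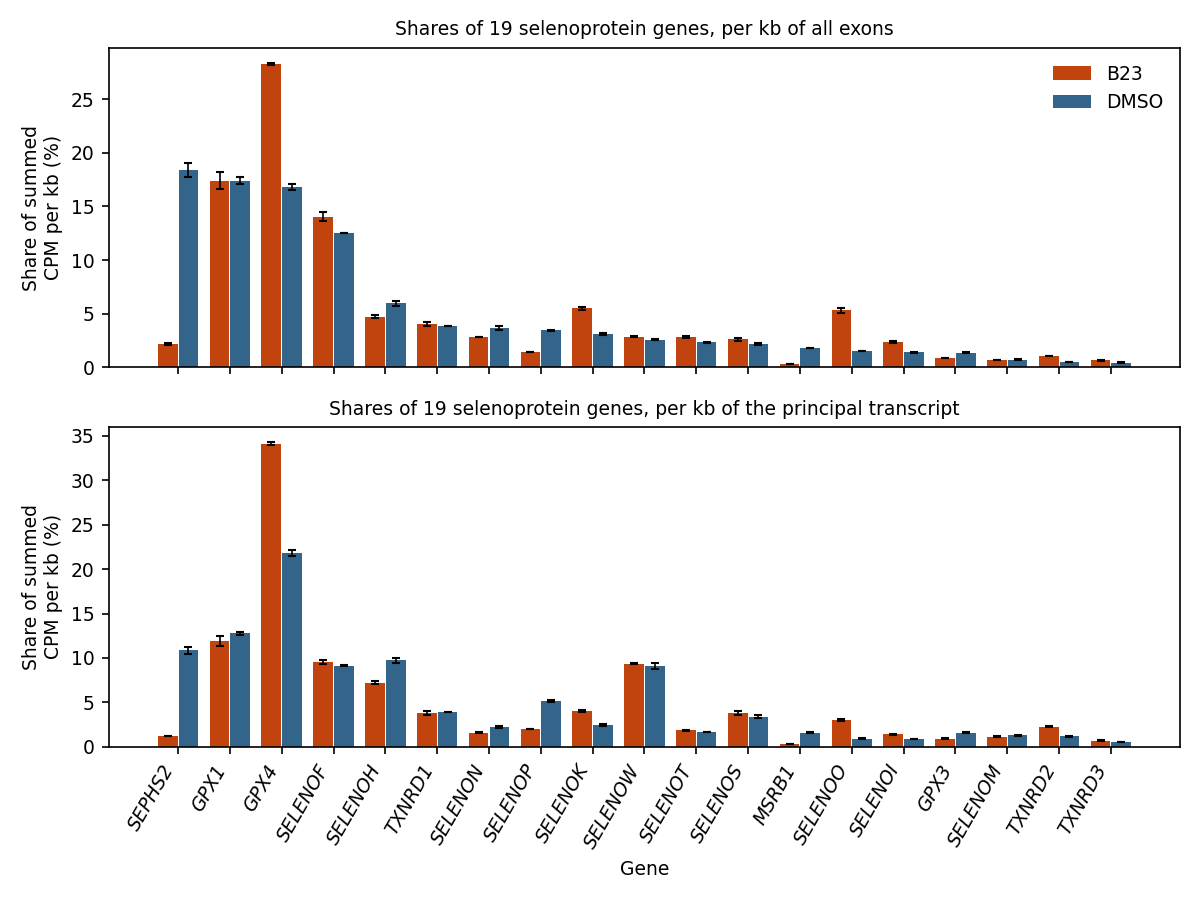
Share of each gene in the CPM per kb summed over 19 selenoprotein genes (y axes, in %), as mean with SD over 3 libraries, B23 in orange and DMSO in blue, with all annotated exons (top) or the principal transcript (bottom) as length. The SEPHS2 share is small in B23 and 10.9% or 18.4% in DMSO, and GPX4 holds the largest share in B23 by either length.

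The human genome holds 15 further selenoprotein genes, of which 9 were tested and DIO1, DIO2, DIO3, GPX2, GPX6 and SELENOV were not analysed here. Of these 9, 4 were higher in B23, 4 were lower and TXNRD1 did not pass, with a median log2 difference of 0.002. These shares are close to those of all genes, 39.6% higher and 49.0% lower.

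MSRB1, which repairs oxidised methionine and carries selenocysteine at its active site, fell to 3.58, 3.50 and 3.69 CPM in B23, against 19.4, 20.2 and 20.03 CPM in DMSO. It was 5.53-fold lower (log2 difference -2.32, SE 0.062, limma adjusted p 1.05e-20). SELENOP, the secreted selenium carrier of plasma, was 2.47-fold lower, with 41.1 ± 0.721 CPM in B23 and 102 ± 1.2 CPM in DMSO (adjusted p 1.19e-20). GPX3, the secreted peroxidase of plasma, was 1.66-fold lower, with 13.6 ± 0.238 CPM in B23 and 22.5 ± 0.700 CPM in DMSO (adjusted p 1.70e-12). Both of these secreted selenoproteins fell. SELENOM, a thioredoxin-like protein of the reticulum, was 1.12-fold lower (limma adjusted p 0.0179). It did not pass without B23 replicate 2 or DMSO replicate 2, nor with TMM or median-of-ratios scaling, edgeR or DESeq2. Its sign turned with quantile normalization.

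SELENOO, a mitochondrial enzyme that attaches AMP to proteins, rose to 66.65, 58.1 and 63.3 CPM in B23, against 18.2, 18.5 and 19.5 CPM in DMSO. It was 3.35-fold higher (log2 difference 1.72, SE 0.048, limma adjusted p 2.73e-20), the largest rise of the 19 selenoprotein genes. SELENOI, which makes the membrane lipid phosphatidylethanolamine, was 1.66-fold higher, with 102 ± 2.00 CPM in B23 and 61.6 ± 1.94 CPM in DMSO (adjusted p 1.55e-15).

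Thioredoxin reductases keep thioredoxin reduced. TXNRD3, best known from testis, was 1.42-fold higher (limma adjusted p 2.39e-07). TXNRD1, the cytosolic form, had 135 ± 2.13 CPM in B23 and 135 ± 2.22 CPM in DMSO (log2 difference 0.002, adjusted p 0.960), and its sign depended on the scaling. TXNRD2, the mitochondrial form, is among the 4 counted as higher and is shown only in the plots.

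Genes that make and insert selenocysteine were found in both directions, in shares near those of all genes (39.6% higher, 49.0% lower). Of 11 tested, 4 were higher in B23, 5 were lower and SECISBP2 and RPL30 did not pass, with a median log2 difference of -0.073. The 5 lower include SEPHS1, which does not supply selenophosphate and is counted again below among the relatives that use cysteine. The enzymes that build selenocysteine on its tRNA split. PSTK, the kinase that phosphorylates the serine on that tRNA, rose to 27.04, 26.5 and 27.8 CPM in B23, against 12.3, 13.3 and 13.03 CPM in DMSO (2.11-fold higher, limma adjusted p 7.97e-16), with C10orf88 and IKZF5 overlapping on the opposite strand. SEPSECS, which takes the phosphoserine and the selenophosphate that SEPHS2 provides, fell to 11.8, 12.2 and 11.4 CPM in B23, against 21.9, 22.9 and 23.1 CPM in DMSO (1.92-fold lower, adjusted p 2.38e-14). Their ratio, PSTK over SEPSECS, averaged 2.30 ± 0.137 in B23 and 0.568 ± 0.011 in DMSO. SARS, which loads serine on the tRNA, was 1.17-fold lower, with 298 ± 2.71 CPM in B23 and 347 ± 9.17 CPM in DMSO (adjusted p 1.70e-06).

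Of the decoding factors, EEFSEC, the elongation factor that brings the selenocysteine tRNA to the ribosome, was 1.72-fold higher, with 40.9 ± 2.99 CPM in B23 and 23.8 ± 0.788 CPM in DMSO (limma adjusted p 3.50e-13), and RUVBL1 overlaps it on the opposite strand. SECISBP2L, a relative of the SECIS-binding protein, was 1.59-fold higher (adjusted p 4.91e-13). SECISBP2 itself had 83.5 ± 2.59 CPM in B23 and 86.0 ± 2.09 CPM in DMSO, with overlapping groups (adjusted p 0.254), and passed as lower with scaling to the listed total (-0.29) and quantile normalization (-0.34). TRNAU1AP, which binds the selenocysteine tRNA, was 1.09-fold lower (adjusted p 0.00718), but did not pass with TMM or median-of-ratios scaling, edgeR or DESeq2, and SNHG12 overlaps it.

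Some RNA-binding proteins with other main duties are known to bind SECIS elements. NCL, the nucleolar protein nucleolin, was 1.42-fold lower, with 371 ± 7.44 CPM in B23 and 527 ± 13.7 CPM in DMSO (limma adjusted p 1.30e-12). EIF4A3, a helicase of the exon junction complex that in rodents limits the translation of a subset of selenoproteins, was 1.27-fold higher (adjusted p 5.74e-10), and its sign turned to -0.045 with quantile normalization. RPL30, a ribosomal protein, did not pass (adjusted p 0.243), but its log2 difference of -0.15 without DMSO replicate 1 did (adjusted p 0.000441), as did -0.33 with scaling to the listed total (adjusted p 5.54e-05) and -0.45 with quantile normalization (adjusted p 3.59e-08).

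Selenium uptake and recycling held 3 tested genes. LRP2, a receptor that takes up SELENOP in the kidney, was 3.33-fold lower at a low level, with 1.93 ± 0.154 CPM in B23 and 6.41 ± 0.451 CPM in DMSO (limma adjusted p 2.53e-14). LRP8, the SELENOP receptor of brain and testis, had 33.1 ± 0.232 CPM in B23 and 32.6 ± 0.318 CPM in DMSO (adjusted p 0.601). SCLY, the lyase that frees selenium from selenocysteine, did not pass either (adjusted p 0.225), and the readthrough gene UBE2F-SCLY overlaps it. The signs of LRP8 and SCLY depended on the scaling.

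Relatives of the selenoproteins that use cysteine in place of selenocysteine were lower in 4 of 5 tested genes, with 0 higher past the threshold. The fifth gene, at 0.18, did not pass, although all its B23 values lay above all its DMSO values. The median log2 difference of the 5 was -0.52, where 49.0% of all genes were lower and the median was -0.10. With 5 genes this count says nothing particular to the group. GPX8, a peroxidase of the reticulum, was 1.97-fold lower, with 21.7 ± 0.700 CPM in B23 and 42.9 ± 1.90 CPM in DMSO (limma adjusted p 4.67e-16). MSRB2 and MSRB3, methionine sulfoxide reductases like MSRB1, were 1.52-fold and 1.27-fold lower, and neither passed with quantile normalization. SEPHS1, given above, was the fourth.

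Partners of the selenoproteins in the thioredoxin and glutathione systems numbered 19. Of these 7 were higher, 10 were lower and 2 did not pass, with a median log2 difference of -0.14. Over all genes 39.6% were higher and 49.0% were lower, so nothing particular to these partners is read from the count. TXNIP, the inhibitor that binds thioredoxin, was 4.08-fold lower, with 59.6 ± 1.86 CPM in B23 and 243 ± 6.12 CPM in DMSO (limma adjusted p 2.86e-24). SRXN1, which restores overoxidised peroxiredoxins, was 2.37-fold lower, with AL121758.1 overlapping on the same strand. TXNL1, a thioredoxin-like protein, and GLRX2, a mitochondrial glutaredoxin, were 1.94-fold and 1.74-fold higher, with WDR7 and TROVE2 overlapping them.

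Around the reticulum selenoproteins, 10 partners were tested, of which 6 were higher, 3 were lower and 1 did not pass, with a median of 0.13. The shares over all genes were 39.6% higher and 49.0% lower, and nothing is read from a count over 10 genes. The derlins DERL3 and DERL2, channel proteins of the disposal pathway that SELENOS and SELENOK serve, were 2.41-fold and 1.60-fold lower, with SMARCB1 and MIS12 overlapping them. HERPUD1, another component of that pathway, was 1.33-fold lower, while UGGT2, a glycoprotein-folding sensor, was 1.53-fold higher.

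Of 5 tested genes of lipid peroxidation around GPX4, 3 were higher and 2 were lower, with a median of 0.27. With 39.6% of all genes higher and 49.0% lower, a count over 5 genes says nothing particular to them. DHODH, a mitochondrial enzyme of pyrimidine synthesis that also keeps ubiquinone reduced, was 4.40-fold lower, with 3.71 ± 0.081 CPM in B23 and 16.3 ± 0.420 CPM in DMSO (limma adjusted p 2.91e-19). ALOX5, a lipoxygenase, was 1.83-fold lower. AIFM2, which reduces ubiquinone at the plasma membrane, was 1.61-fold higher and LPCAT3, which puts polyunsaturated acyl chains into phospholipids, 1.29-fold higher, with H2AFY2 and EMG1 overlapping them.

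Differences in these libraries went with exon number across all coding genes, so each gene was set beside coding genes of like exon number. The median log2 difference was -1.13 over 282 tested single-exon coding genes, -0.88 over 622 with 2 exons, -0.55 over 793 with 3, -0.26 over 2954 with 4 to 6, 0.026 over 4161 with 7 to 12 and 0.14 over 4398 with 13 or more. SEPHS2 lay 1.97 below the median of its class on the log2 scale and was the ninth lowest of the 282, of which 11 were lower by at least 3. MSRB1, with 4 exons, lay 2.05 below its class median.

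Of the 10 genes, 8 lay above the median of their exon class. GPX1, with 2 exons, lay 0.83 above it, SELENOK 1.02 above and GPX4 0.67 above. SELENOH, lower in B23, lay 0.16 above the median of genes with 3 exons. SELENON, with 13 exons, was the gene besides SEPHS2 that lay below its class median, by -0.55. Among the other tested selenoprotein genes, GPX3, MSRB1, SELENOM, SELENOP and TXNRD1 lay below the median of their class and the rest above. For SELENOM this rests on the principal transcript SELENOM-202, with 7 exons. The transcript that carries its annotated selenocysteine codon, SELENOM-201, has 5 exons. SELENOM, at -0.16, lay above the median of -0.26 of genes with 4 to 6 exons, so its side depends on the transcript. Since the 10 genes were chosen on this comparison, nothing is read from their count. The part of exon number in these differences was not tested.

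**Figure D5:**
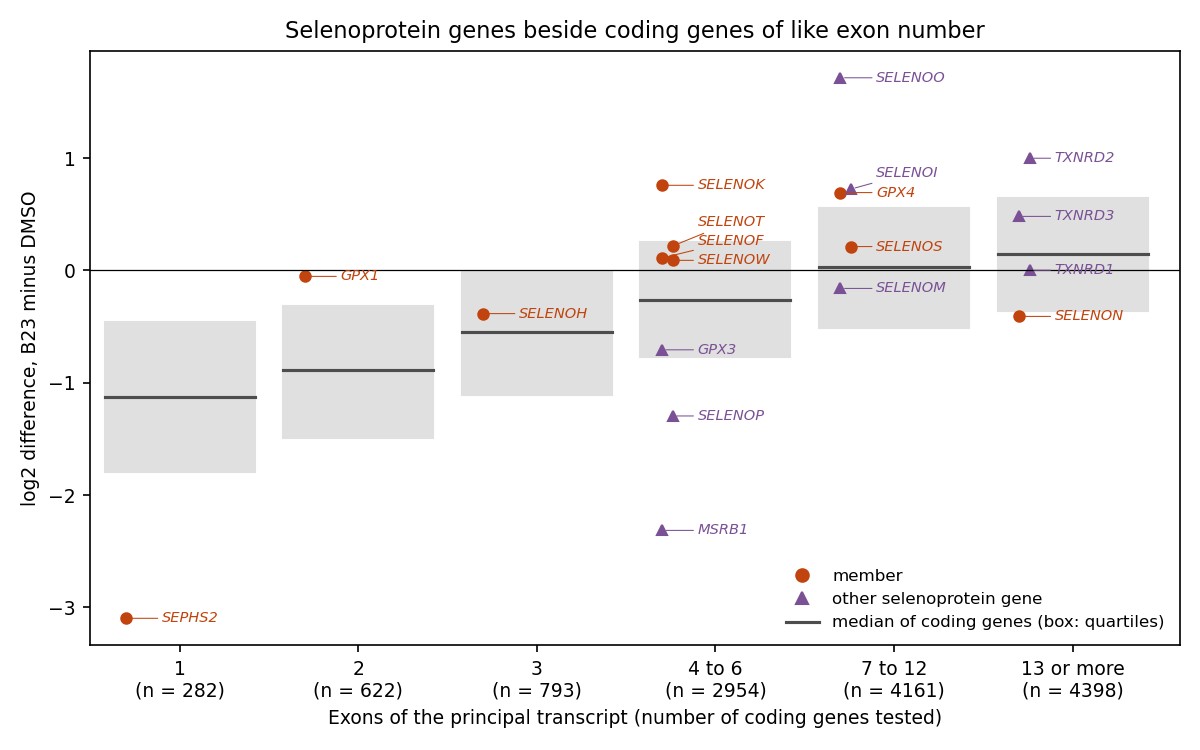
Difference of log2(CPM + 0.5), B23 minus DMSO, of the 10 genes (orange circles) and the other tested selenoprotein genes (purple triangles), placed by exon number of the principal transcript, over the median (line) and quartiles (box) of all tested coding genes of that class. The class medians run from -1.13 with 1 exon to 0.14 with 13 or more, with SEPHS2 and MSRB1 far below theirs and SELENOO 1.69 above.

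The genes whose profile over the 6 libraries was most like that of SEPHS2, by Euclidean distance between log2(CPM + 0.5) values, each gene centred on its own DMSO mean, among 12051 candidates with a mean of at least 5 CPM, were CCDC71L, AL161772.1, RIOX1, KCNJ8 and ZNF503. Their distances were 0.126, 0.132, 0.148, 0.152 and 0.160. CCDC71L averaged 4.24 CPM in B23 and 41.5 CPM in DMSO, and ZNF503 averaged 33.0 CPM in B23 and 278 CPM in DMSO. Like SEPHS2, 3 of the 5 (CCDC71L, AL161772.1 and RIOX1) have a single exon, and AL161772.1 is an antisense transcript that overlaps IL17D.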

How the data were processed

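Polyadenylated RNA of 3 B23 and 3 DMSO libraries was compared, grouped by the treatment labels. The authors deposited CPM for 15496 gene symbols; STAR 2.6.1d, SAMtools, HTSeq, edgeR and the build hg38 are named in the submitters' processing notes, and a stranded mRNA kit in the labels' protocols. No source used here gives the annotation, the filter on listed genes or whether counting used strand. The deposited CPM were whole multiples of 1 read for 100% of values within 0.001, so reads could be recovered. Listed genes summed to 890367 to 900113 CPM in B23 and 745216 to 753745 CPM in DMSO, and how they were scaled is stated in no source used here.

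CPM were used as deposited. The 14792 genes that averaged 1 CPM or more were transformed to log2(CPM + 0.5) and fitted with limma 3.58.1 in R 4.3.3 with trend and robust empirical Bayes. Two-sided p-values were adjusted by Benjamini and Hochberg's method over all genes tested, and the threshold was 0.05. Folds are ratios of mean CPM, SE is that of the fit, and the log2 scale understates changes of low genes. Tried beside this were pseudocounts of 0.1 and 2, all genes without filter, genes averaging 5 CPM or more, 4 other scalings (TMM, median-of-ratios, quantile, listed-gene total), no trend and not robust, a replicate block, removal of rows that share reads, each library left out, and edgeR 4.0.16 and DESeq2 1.42.0 on the recovered reads, on which edgeR called 13144 genes. The use of principal-transcript length beside all exons was added after seeing the data.

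The 10 genes and all lists were chosen with earlier results of these data known, and no count over them is independent support. Named are the 10 genes, every tested gene of the lists of other selenoproteins, decoding, and uptake and recycling, up to 4 genes past the threshold with the largest difference from each other list, and the 5 genes nearest in profile to SEPHS2 with a mean of at least 5 CPM. Some items these rules take are not reported here. Symbols, exons, overlaps and codons come from GENCODE 29 (GRCh38), in which all 15496 symbols were found. Overlaps were sought among the listed genes only, and overlapping genes are named from a mean of 10% of the gene's own upward.

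Replicates were compared within each group: their reads differed by more than sampling noise, so each library counted as 1. With simulated data for B23 against DMSO (14792 genes, 50 changed per fold), the fit recovered 72% at 1.25-fold, 98% at 1.5-fold and 100% at 2-fold and 4-fold, with 15 false calls among 200. Far fewer genes were changed there than the 88.6% called in the real data, equally up and down. Uncertainty in the scaling was not simulated, so these rates do not cover it.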

Additional observations from a re-analysis of the deposited data

How the results depend on the processing

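Under all 19 alternatives the counts of changed genes over all genes, the other selenoproteins and the decoding genes stayed within 1.5 times. The log2 difference of SEPHS2, on which the genes were chosen, ranged from -3.35 to -2.99, and its direction is no sign of stability. Of the 53 named genes, 41 kept their sign under all alternatives. The other 12 turned under at least 1 other scaling, and the cause was not tested. Genes lower in B23 made up 55.3% of calls. That share was 49.7% with median-of-ratios scaling, 51.4% with TMM and 51.6% with quantile normalization. It was 67.5% with the listed-gene total. With that scaling the log2 difference was -0.038 for SELENOS, -0.034 for SELENOT, -0.14 for SELENOF, -0.16 for SELENOW, -0.25 for TXNRD1 and -0.23 for LRP8. With quantile normalization it was -0.35 for SELENOF, -0.15 for SELENOW, 0.20 for SELENOM, -0.43 for TXNRD1, -0.045 for EIF4A3 and 0.22 for SCLY. GPX1, SECISBP2, RPL30 and SCLY turned positive, to 0.024, 0.034, 0.0042 and 0.0086 with TMM, to 0.056, 0.065, 0.036 and 0.040 with median-of-ratios and to 0.051, 0.058, 0.026 and 0.033 with DESeq2. With edgeR, GPX1, SECISBP2 and SCLY were at 0.022, 0.029 and 0.0036. With each library left out in turn, GPX1 ranged from -0.089 (without B23 replicate 1) to 0.0098 (without B23 replicate 2), and TXNRD1 from -0.011 (without DMSO replicate 1) to 0.014 (without B23 replicate 1). SELENOT, MSRB2 and MSRB3 did not pass with quantile normalization, while TXNRD1 and LRP8 passed as higher with TMM (0.079 and 0.098), median-of-ratios, edgeR and DESeq2, and with the listed-gene total TXNRD1, LRP8, GPX1 (-0.31), SECISBP2 (-0.29), RPL30 (-0.33) and SCLY (-0.31) passed as lower. With quantile normalization TXNRD1, GPX1 (-0.47), SECISBP2 (-0.34) and RPL30 (-0.45) passed as lower and SCLY as higher.

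Libraries of the same replicate number did not deviate together (r of 0.026, -0.070 and -0.062 across genes), so the numbers do not pair the samples. A replicate block gave 13106 changed genes, against 13111 without it. For differences near 0, such as those of GPX1 and SELENOW, the groups of 3 libraries overlapped, and a gene that did not pass is not shown to be equal between groups.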

Other observations

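The genes that flank SEPHS2 on chromosome 16 were lower in B23 too. Within 100 kb of SEPHS2, 11 other genes were tested and all 11 were lower past the threshold in the limma fit, against 49.0% of all genes. Many of them have 2 or 3 exons, and 81.0% of tested coding genes with 2 exons and 69.5% of those with 3 were lower. The part of exon number here was not tested. The log2 differences of the 11 ran from -1.52 to -0.21, with a median of -0.90. Of the tested genes closest to SEPHS2 on either side, ZNF771 had 14.9 ± 0.667 CPM in B23 and 17.4 ± 1.14 CPM in DMSO, and ZNF768 had 128 ± 5.58 CPM in B23 and 238 ± 4.86 CPM in DMSO. DCTPP1, which removes faulty deoxycytidine triphosphates from the nucleotide pool, had 64.0 ± 3.42 CPM in B23 and 125 ± 8.33 CPM in DMSO. The lowest was ZNF747, a zinc finger gene, with 9.77 ± 0.3 CPM in B23 and 29.04 ± 0.844 CPM in DMSO. None was as low relative to DMSO as SEPHS2, at -3.10. Several of these genes overlap each other, so their reads cannot be fully told apart, and the window was chosen after values were seen.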
